A study of Mus musculus with 9 samples.

Results

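Proteins that bring long-chain fatty acids into cells and carry them there were examined in whole NB9464 tumors. The genes were chosen by name and comprised the 6 members of the SLC27 family (Slc27a1 to Slc27a6), Cd36 and 3 fatty acid binding proteins (Fabp3, Fabp4 and Fabp5). These were 10 of the 54429 gene symbols counted. Slc27a6 was included because its counts were seen to be higher in treated tumors, so its values are described here and were not tested. The other 9 genes accompany it as proteins of the same process.

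NB9464 is a mouse neuroblastoma line with amplified MYCN, grown here as subcutaneous tumors in C57BL/6 mice of WT genotype, whose age the labels do not give. Treatment started at a tumor volume of 250 mm3. The vehicle group received neither drug nor radiation, the R788 + anti-PDL1 group received R788 (fostamatinib, a prodrug that inhibits the kinase Syk) at 50 mg/kg and an antibody against the checkpoint ligand PD-L1, and the Rad + R788 + anti-PDL1 group received 10 Gy of radiation as well. The design text lists 4 doses, from day 28 to day 37, without naming the agents they cover. Each group had 3 tumors. Replicates of the last group are called irradiated replicates 1 to 3. The labels do not tie each tumor to a mouse of its own, so the p-values measure the spread between these samples. Tumors given R788, the antibody or radiation alone were not analysed here, and the contribution of each drug cannot be told apart.

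Long-chain fatty acids enter cells partly through membrane proteins. CD36 is a scavenger receptor that binds fatty acids and oxidized lipoproteins and is abundant on macrophages, capillary endothelium, adipocytes and muscle. SLC27 proteins, also called FATP, are membrane proteins that promote uptake, and several of them join the incoming fatty acid to coenzyme A, which traps it in the cell. FABP proteins are small cytosolic carriers. FABP3 is typical of heart and skeletal muscle, FABP4 of adipocytes, capillary endothelium and macrophages, and FABP5 of epidermis and many tumors. Whole tumors mix cancer cells with such host cells, so fewer cells of a type and less RNA per cell cannot be told apart in any value given here.

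Total counts were 18276683 to 23397886 per library. Values are CPM, the counts scaled to the same library total in every sample after correction by the trimmed mean of M values (TMM). On this scale 3 counts, the upper limit that a count of 0 allows, corresponded to 0.115 to 0.221 CPM. Irradiated replicate 1 stood apart from the other libraries. Its correlation with them across genes was 0.86 to 0.91, whereas the other 8 libraries correlated with one another at 0.94 to 0.98, and its TMM factor was 0.743. Of the tumor cell markers, Mycn was at 160 ± 28.3 CPM and Hand2 at 373 ± 56.2 CPM in vehicle tumors (SD, n = 3), but Th, the first enzyme of catecholamine synthesis, was at 0 in all 9 libraries.

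Levels of the 10 genes relative to each other were compared as CPM per kb of the longest coding transcript with a consensus coding sequence. Fabp5 was far above the rest, with 379 ± 63 CPM per kb in vehicle tumors, 283 ± 98.3 in R788 + anti-PDL1 tumors and 208 ± 54.9 in irradiated tumors (SD, n = 3). The lowest Fabp5 level in any tumor was 144 CPM per kb, above the highest Fabp4 level of 47.5 CPM per kb. In vehicle tumors Fabp4 came second (36.5 ± 14.6), followed by Slc27a1 (16.4 ± 0.793) and Slc27a3 (12.3 ± 1.72), and the ranges of these 4 genes did not overlap one another. Slc27a3, Slc27a4 (8.8 ± 1.93), Fabp3 (8.01 ± 3.99) and Cd36 (6.86 ± 2.47) overlapped from each to the next. Fabp4 overlapped Slc27a1 in both treated groups, and in irradiated tumors Cd36 (2.26 ± 1.24) overlapped Slc27a6 (1.06 ± 0.655). Slc27a6 ranked 8th of the 10 genes in every group, above only Slc27a2 and Slc27a5, which were close to 0. By merged exon length, the measure planned at first, Slc27a3 (10.8) came second in vehicle tumors, with Slc27a1 (7.86) and Fabp4 (7.29) below it. The order of the genes between Fabp5 and Slc27a6 thus depended on the length used.

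Slc27a6 (ENSMUSG00000024600.8, GRCm38 chromosome 18, 58556257 to 58612773, plus strand) encodes FATP6, a transporter known mainly from heart muscle. Each of the 3 vehicle tumors held 2 counts of it, or 0.11, 0.0898 and 0.11 CPM. The R788 + anti-PDL1 tumors held 175, 42 and 124 counts, or 7.72, 1.61 and 5.08 CPM. The irradiated tumors held 11, 78 and 68 counts, or 0.811, 3.96 and 3.11 CPM. Every treated tumor was thus above every vehicle tumor, the treated groups overlapped each other, and the vehicle tumors were at or under the limit of 3 counts. The gene passed the filter on low counts through the treated groups in which it is high.

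The mean level of Slc27a6 was 0.103 ± 0.0117 CPM in vehicle, 4.8 ± 3.07 CPM in R788 + anti-PDL1 and 2.62 ± 1.63 CPM in irradiated tumors (SD, n = 3). The ratio of the summed counts, each over the summed scaled library totals, was 45.5 for R788 + anti-PDL1 against vehicle, from 341 against 6 counts, with an exact 95% counting interval of 20.7 to 125. It was 27.8 for the irradiated tumors against vehicle, from 157 counts, with an interval of 12.5 to 76.9. These intervals cover counting error only, since they pool the tumors of a group and leave out the spread between tumors. They are no test of a difference, because Slc27a6 was chosen for its rise. Within R788 + anti-PDL1, replicate 2 was the lowest tumor, and within the irradiated group replicate 1 was. The ratio to vehicle was 62.1 without the former and 34.3 without the latter, omissions that can only raise it. Without R788 + anti-PDL1 replicate 1, the highest tumor, the fitted log2 difference of that group from vehicle fell from 5.47 to 4.94. The irradiated tumors had 0.611 times the level of the R788 + anti-PDL1 tumors, and 0.754 times that level without irradiated replicate 1. The counting interval of 0.503 to 0.741 again leaves out the spread between tumors, and the tumors of these groups overlapped. None of the 31-base stretches of its transcript was shared with another annotated gene, and no other gene overlaps it.

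**Figure D1:**
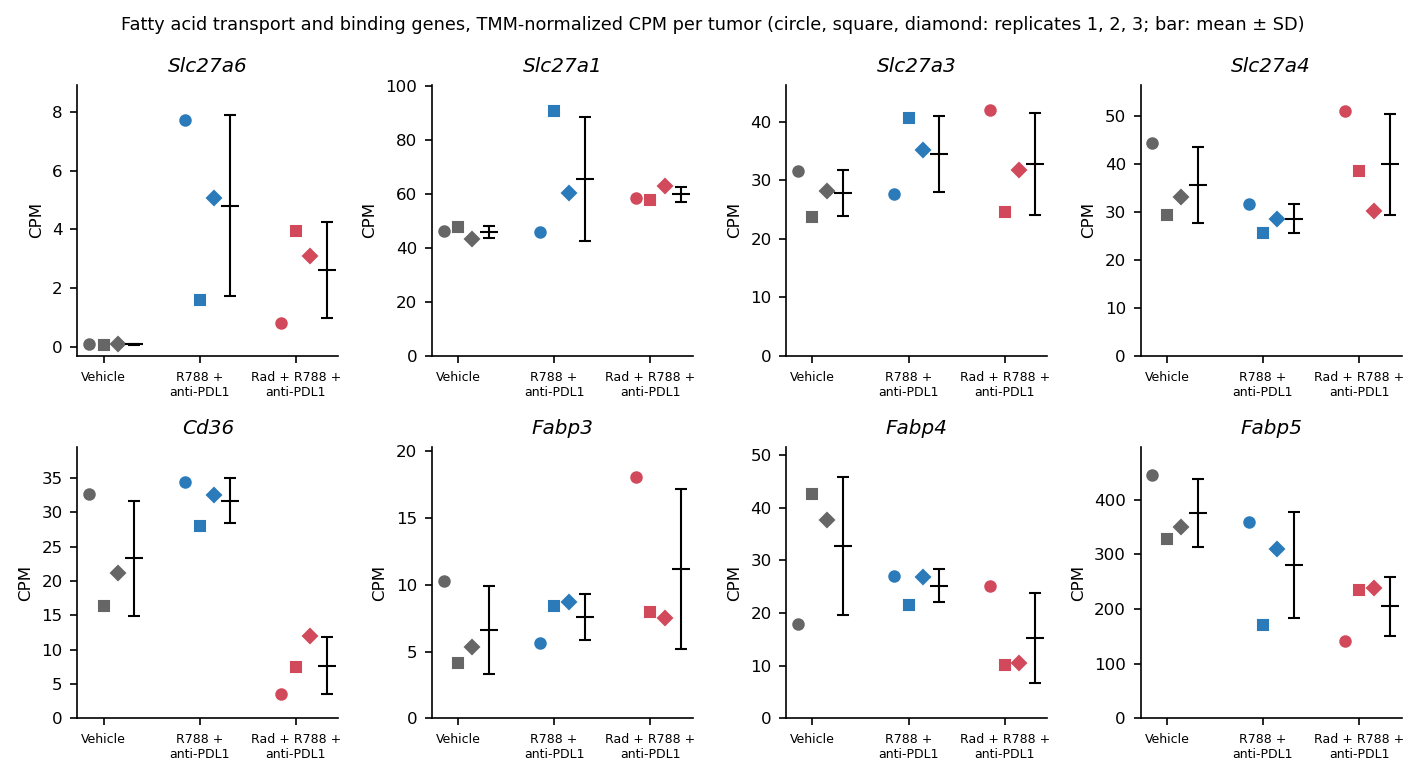
CPM of the 8 genes that passed the count filter, 1 panel per gene and 1 point per tumor (circle, square and diamond for replicates 1, 2 and 3), with mean ± SD beside each group and a separate scale in each panel. Slc27a6 was near 0 in the 3 vehicle tumors and between 0.811 and 7.72 CPM in the 6 treated tumors, and Cd36 was lower in the 3 irradiated tumors (3.61 to 12 CPM) than in any other tumor (16.3 to 34.4 CPM).

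Genes with a profile over the 9 libraries like that of Slc27a6 were ranked by the root mean square difference of standardised log2 CPM, which is 0 for identical profiles. The median difference was 1.378 among the 11642 genes whose mean count reached 50. The 5 closest named genes were Papss2 (0.167), Zfp605 (0.179), Ahr (0.195), Elovl7 (0.23) and Sntb1 (0.23). Papss2 makes the sulfate donor of the cell, Ahr is the aryl hydrocarbon receptor, Elovl7 elongates long-chain fatty acids and Sntb1 is a syntrophin of the dystrophin complex. Elovl7, the fatty acid gene among them, had means of 0.262, 3.62 and 3.42 CPM in vehicle, R788 + anti-PDL1 and irradiated tumors. Sntb1 had 0.085, 5.39 and 2.19 CPM in the same order. The other fatty acid transport and binding genes were much less like Slc27a6, with differences of 1.026 (Slc27a1) to 1.618 (Fabp4). Since the genes were picked for this likeness, no test was attached to it.

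The other members of the SLC27 family were either not called in any comparison or barely counted. Slc27a1, Slc27a3 and Slc27a4 made up nearly the whole family in each tumor, whereas Slc27a6 was 0.104% to 0.122% of the summed CPM per kb in vehicle, 1.12% to 7.83% in R788 + anti-PDL1 and 0.621% to 3.72% in irradiated tumors. The family total was 34.9 to 41.6 CPM per kb in vehicle, 39.6 to 57.5 in R788 + anti-PDL1 and 42.8 to 52.5 in irradiated tumors. Slc27a6 thus remained the smallest of the 4 counted members in every tumor.

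**Figure D2:**
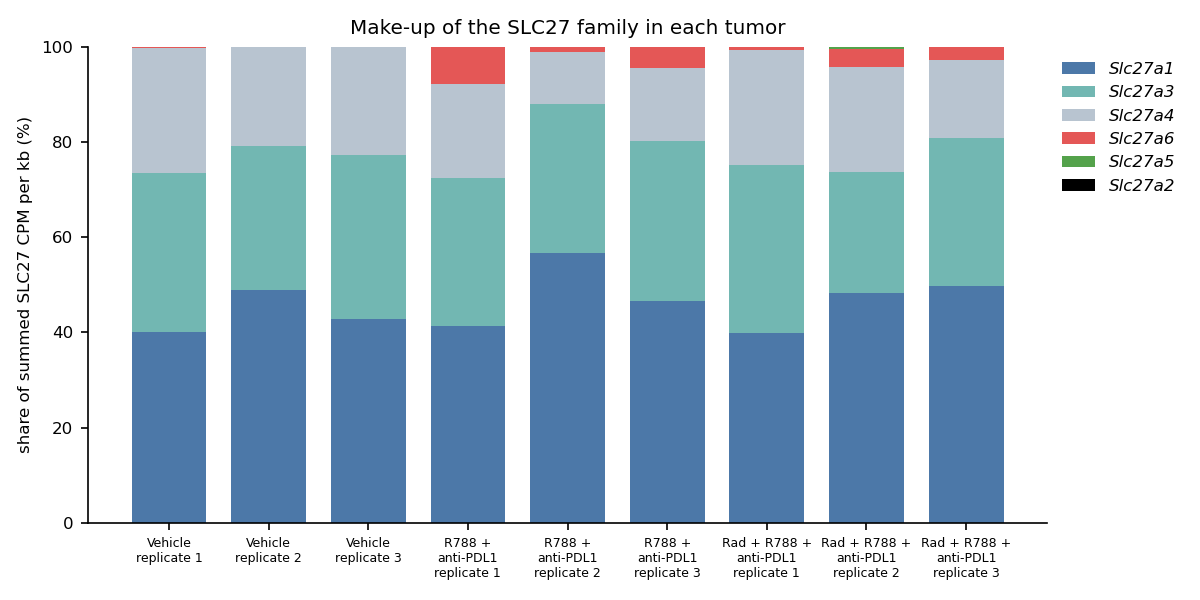
Make-up of the SLC27 family in each of the 9 tumors, as the share in % of the summed CPM per kb of its 6 members, stacked to 100%. Slc27a1, Slc27a3 and Slc27a4 filled nearly the whole bar in every tumor, and the share of Slc27a6 (red) was at most 0.122% in vehicle and reached 7.83% in R788 + anti-PDL1 replicate 1.

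Slc27a1 (chromosome 8, 71568882 to 71587302) encodes FATP1, the insulin-responsive transporter of muscle and fat. It was at 46.5, 47.7 and 43.4 CPM in vehicle, 45.9, 90.8 and 60.3 CPM in R788 + anti-PDL1 and 58.6, 57.8 and 63.2 CPM in irradiated tumors. The irradiated tumors did not overlap the vehicle tumors, also without irradiated replicate 1 (17.2% of all genes were then higher without overlap), whereas the R788 + anti-PDL1 tumors did, with replicate 2 highest of all. By the quasi-likelihood F test of edgeR, adjusted over 15931 genes, the log2 fold change against vehicle was 0.52 ± 0.24 (SE; adjusted p = 0.458) in R788 + anti-PDL1 and 0.38 ± 0.24 (adjusted p = 0.465) in irradiated tumors, and neither passed 0.05.

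Slc27a3 (chromosome 3, 90385239 to 90389938), an acyl-CoA synthetase of the family, was at 31.5, 23.8 and 28.1 CPM in vehicle, 27.7, 40.7 and 35.1 CPM in R788 + anti-PDL1 and 42, 24.6 and 31.8 CPM in irradiated tumors. The 3 groups overlapped one another. Slc27a4 (chromosome 2, 29802634 to 29817522), the FATP4 of intestine and skin, was at 44.4, 29.4 and 33.2 CPM in vehicle, 31.7, 25.6 and 28.7 CPM in R788 + anti-PDL1 and 51.2, 38.6 and 30.2 CPM in irradiated tumors. Its groups overlapped too, and the lowest adjusted p of both genes in the 3 comparisons was 0.313 (edgeR), for Slc27a4 between the treated groups with a log2 fold change of 0.48 and a 95% interval of -0.08 to 1.03.

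Slc27a2 (FATP2, of liver and kidney) and Slc27a5 (FATP5, of liver) were below the count filter and were not tested. Slc27a2 had 1 count in R788 + anti-PDL1 replicate 1, 2 in irradiated replicate 3 and 0 in the other 7 libraries. Slc27a5 had 1 count in R788 + anti-PDL1 replicate 3, 6 in irradiated replicate 2 and 0 elsewhere. Slc27a2 overlaps Gm26697 on the opposite strand, and whether the counting used strand was not stated. The summed level of 6 hepatocyte markers was at most 1.18 CPM in any tumor.

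In all, 0 of the 7 tested genes other than Slc27a6 were called by edgeR in any of the 3 comparisons, where 0.678% of all genes were called in R788 + anti-PDL1 against vehicle, 0.0439% in irradiated tumors against vehicle and 0.00628% between the treated groups. An unadjusted p under 0.05 was obtained for 0, 3 and 1 of the 7, in the same order, against 11.7%, 13.2% and 18.4% of all genes. DESeq2, the tool of the study, called 0, 1 and 1 of them, against 4.01%, 3.15% and 4.06% of the genes it tested, and the called gene was Cd36 both times. Groups did not overlap at 0 of the 7 in R788 + anti-PDL1 against vehicle, at 3 in irradiated tumors against vehicle (Slc27a1 higher, Cd36 and Fabp5 lower) and at 1 between the treated groups (Cd36 lower), where the share over all genes was 30.1%, 20.5% and 27.4%. By direction these shares were 9.27% higher and 11.2% lower in irradiated tumors against vehicle, and 13.2% lower between the treated groups. The comparisons share groups and are not independent of one another.

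**Figure D3:**
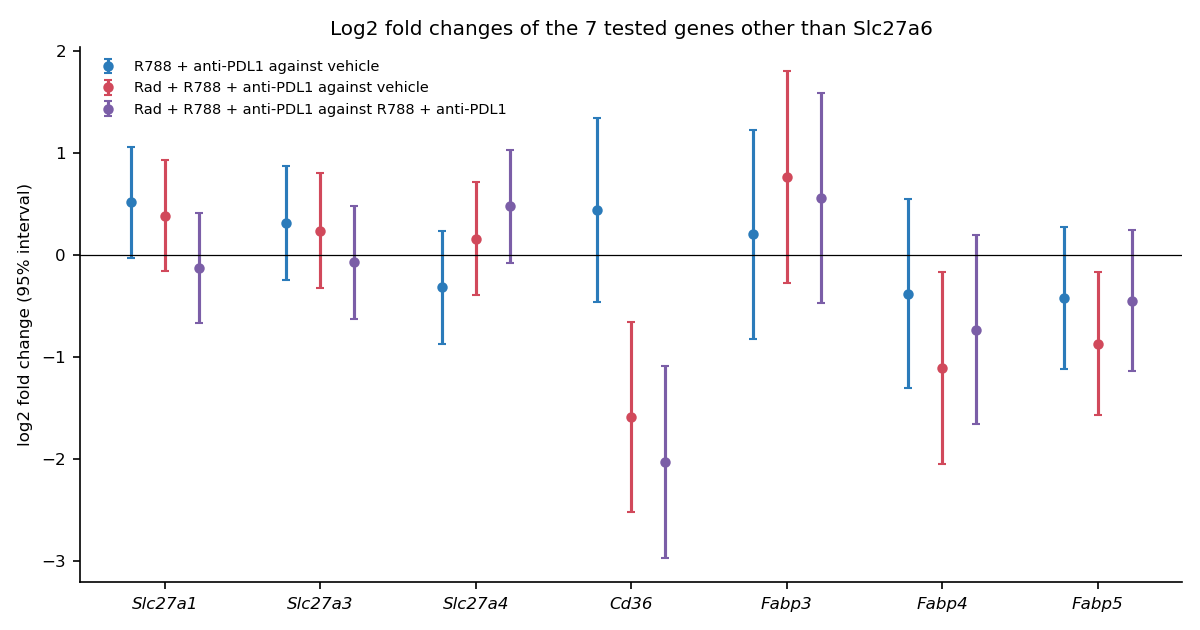
Log2 fold changes of the 7 tested genes other than Slc27a6 in the 3 comparisons (colours), with 95% intervals from the edgeR fit of all 9 libraries. The intervals of Cd36 in both comparisons of the irradiated tumors, and of Fabp4 and Fabp5 in irradiated tumors against vehicle, lay below 0, and the rest crossed 0.

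Cd36 (ENSMUSG00000002944.15, chromosome 5, 17781690 to 17888801, minus strand) had the lowest p of the 7 genes in both comparisons of the irradiated tumors. It was at 32.6, 16.3 and 21.1 CPM in vehicle, 34.4, 28 and 32.5 CPM in R788 + anti-PDL1 and 3.61, 7.41 and 12 CPM in irradiated tumors. All 3 irradiated tumors were below all 6 others, and replicate 1 was the lowest of them. Its mean was 7.68 ± 4.2 CPM in irradiated tumors against 23.3 ± 8.38 CPM in vehicle and 31.7 ± 3.32 CPM in R788 + anti-PDL1 (SD, n = 3).

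The log2 fold change of Cd36 in irradiated tumors was -1.59 ± 0.41 against vehicle (95% interval -2.52 to -0.66) and -2.03 ± 0.42 against R788 + anti-PDL1 (interval -2.97 to -1.09). With edgeR these missed the threshold after adjustment over all genes (adjusted p = 0.221 and 0.139), whereas with DESeq2 they passed it (-1.58, adjusted p = 0.013, and -2.04, adjusted p = 0.000348). The log2 fold change was below 0 in all 11 alternatives of both comparisons, with adjusted p-values of 0.013 to 0.622 and of 0.000348 to 0.528. Without irradiated replicate 1 the groups still did not overlap, at -1.23 and -1.69 with edgeR (adjusted p = 0.143 and 0.0884), where 20.2% and 17.0% of all genes were lower without overlap. Between R788 + anti-PDL1 and vehicle Cd36 differed by 0.44 ± 0.40 (adjusted p = 0.751), and those groups overlapped.

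Markers of the cell types that carry Cd36 were set beside it. The 10 macrophage markers, all of them counted in every group, summed to 327 to 687 CPM in vehicle, 712 to 724 in R788 + anti-PDL1 and 364 to 1910 in irradiated tumors. Between irradiated tumors and vehicle 9 of 10 were above 0 in log2 fold change, but the sum of 1910 CPM was that of irradiated replicate 3 alone. Irradiated replicates 1 and 2 (572 and 364 CPM) lay within the vehicle range. The 10 endothelial markers summed to 54 to 60.7, 60.5 to 156 and 82.1 to 103 CPM, again with 9 of 10 above 0. Pecam1 (0.94) and Egfl7 (1.27) were among the higher ones, whereas Kdr (0.06) and Tek (0.09) were near 0 and Cdh5 was at -0.18. Between irradiated and R788 + anti-PDL1 tumors, 5 of the endothelial markers were above 0 and 5 below. In summed CPM, all irradiated tumors were above all vehicle tumors in the endothelial list and overlapped them in the macrophage list. Irradiated replicates 1 and 2 also lay below the macrophage range of R788 + anti-PDL1 in summed CPM. By log2 fold change between these 2 groups, however, 9 of 10 macrophage markers were above 0 (median 0.55), with replicate 3 included. Of the 8 adipocyte markers, Adipoq and Lep were at 0 in vehicle and R788 + anti-PDL1, and the list summed to 8.61 to 19.3, 1.76 to 3.28 and 4.43 to 9.51 CPM, most of it from Thrsp, a regulator of lipid synthesis. The log2 fold change of Thrsp in R788 + anti-PDL1 against vehicle was -2.91 (edgeR adjusted p = 0.0383), a call that was lost under the replicate block and without any 1 of these libraries other than vehicle replicate 1 (-2.69 to -3.09, adjusted p up to 0.216). The part of these cells in the Cd36 values was not tested.

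**Figure D4:**
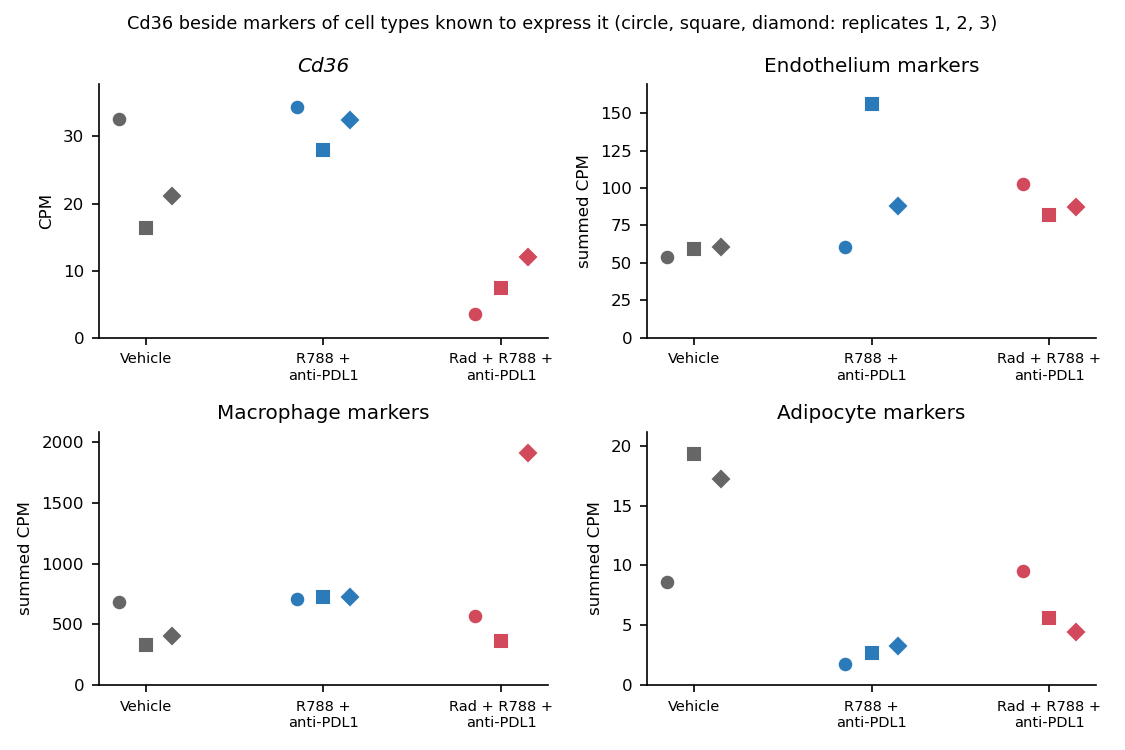
CPM of Cd36 and the summed CPM of endothelial, macrophage and adipocyte markers in each tumor (circle, square and diamond for replicates 1, 2 and 3). The irradiated tumors had 3.61 to 12 CPM of Cd36. Their endothelial sums of 82.1 to 103 CPM were above all 3 vehicle tumors (54 to 60.7 CPM) and within the R788 + anti-PDL1 range (60.5 to 156 CPM). Their macrophage sums of 364 to 1910 CPM, highest in replicate 3, overlapped those of vehicle.

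Promoter sequence of Cd36 is shown because it was the tested gene with the largest difference between groups, beside that of Slc27a4, a relative whose groups overlapped. Each is the 250 bases before the RefSeq start site (GRCm38.p6), read on the strand of the gene: Cd36 at chr5:17835897-17836146 (minus strand), inside the annotated span of the gene but in none of its exons, and Slc27a4 at chr2:29802384-29802633 (plus strand), in no exon. Capitals mark AGGTCA, a motif bound by nuclear receptors such as the PPARs, the GC box GGGCGG and CCAAT, each on either strand.

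Cd36: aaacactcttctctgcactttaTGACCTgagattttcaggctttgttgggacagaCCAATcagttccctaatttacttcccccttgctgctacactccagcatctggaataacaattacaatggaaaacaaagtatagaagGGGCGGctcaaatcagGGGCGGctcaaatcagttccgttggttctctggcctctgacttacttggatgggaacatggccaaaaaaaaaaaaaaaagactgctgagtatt

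Slc27a4: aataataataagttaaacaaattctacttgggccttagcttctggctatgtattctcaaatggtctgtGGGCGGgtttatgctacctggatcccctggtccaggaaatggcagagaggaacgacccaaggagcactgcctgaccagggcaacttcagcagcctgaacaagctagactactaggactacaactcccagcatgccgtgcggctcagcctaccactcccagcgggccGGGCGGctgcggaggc

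The Cd36 window held 1 AGGTCA, read on the opposite strand as TGACCT, 2 GC boxes and 1 CCAAT, and the Slc27a4 window held 2 GC boxes. Of 32851 promoter windows of this length, 14% held AGGTCA, 32.7% the GC box and 33.8% CCAAT. These matches are descriptions of the letters. Of the PPAR genes, Ppara was at 0 in vehicle and irradiated tumors, Ppard was at 55.3 ± 9.65, 46.1 ± 6.97 and 39.8 ± 12.7 CPM and Pparg at 1.48 ± 0.148, 2.38 ± 0.599 and 1.82 ± 1.13 CPM in vehicle, R788 + anti-PDL1 and irradiated tumors (SD, n = 3). Neither of the latter was called, with edgeR adjusted p-values of 0.437 to 0.785.

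The fatty acid binding proteins were led by Fabp5 (chromosome 3, 10012548 to 10016607), which was 74.3% to 93.3% of the summed CPM per kb of the 3 carriers in every tumor. It was at 445, 329 and 350 CPM in vehicle, 359, 171 and 309 CPM in R788 + anti-PDL1 and 142, 234 and 239 CPM in irradiated tumors. All irradiated tumors were below all vehicle tumors, and the R788 + anti-PDL1 tumors overlapped both groups. The log2 fold change in irradiated tumors against vehicle was -0.87 ± 0.31 (edgeR adjusted p = 0.318), and -0.64 without irradiated replicate 1. Of its 31-base stretches 9.27% were shared with other genes, most with Gm6166. The summed level of the 8 keratinocyte markers was 7.95 to 8.6 CPM in vehicle, 2.16 to 64.2 in R788 + anti-PDL1 and 47.6 to 75.7 in irradiated tumors. Most of it came from Krt5, Dsg1a was at 0 throughout, and Krt14 (1.47, 0 and 0.0338 CPM) and Trp63 (1.79, 0.681 and 0.809 CPM) had their highest mean in vehicle. The part of these cells in the Fabp5 values was not tested.

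Fabp4 (chromosome 3, 10204088 to 10208576) was at 17.9, 42.6 and 37.7 CPM in vehicle, 27.1, 21.6 and 26.8 CPM in R788 + anti-PDL1 and 25.1, 10.1 and 10.5 CPM in irradiated tumors. Vehicle replicate 1 and irradiated replicate 1 lay apart from their groups, in opposite directions, and the groups overlapped through them. The log2 fold change in irradiated tumors against vehicle was -1.11 ± 0.42 (edgeR adjusted p = 0.333). Without irradiated replicate 1 it was -1.63 (edgeR adjusted p = 0.0817) against vehicle and -1.28 (adjusted p = 0.143) against R788 + anti-PDL1. The irradiated tumors then lay below both other groups without overlap, as they did for 20.2% and 17.0% of all genes.

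Fabp3 (chromosome 4, 130308595 to 130315463) was the lowest of the 3 carriers in CPM. It was at 10.3, 4.13 and 5.32 CPM in vehicle, 5.64, 8.45 and 8.69 CPM in R788 + anti-PDL1 and 18.1, 7.97 and 7.54 CPM in irradiated tumors. The groups overlapped, and irradiated replicate 1 was the highest tumor. The 10 skeletal muscle markers summed to 786 CPM in that tumor and to 41.5 to 173 CPM in the other 8, mostly from Tnni2, while Mb and Myh2 were close to 0, and the part of muscle in the Fabp3 value was not tested. The log2 fold change of Fabp3 in irradiated tumors against vehicle was 0.76 ± 0.46 (edgeR adjusted p = 0.454), and 0.26 without irradiated replicate 1. Its count is uncertain, since 50.1% of its 31-base stretches occur in other genes, most of them in the pseudogene Fabp3-ps1, and Zcchc17 and Gm10570 overlap it on the opposite strand. The 7 other fatty acid binding proteins, from Fabp1 to Pmp2, were all below the count filter.

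The wider pathway was described by 7 further lists of genes, on synthesis, activation, breakdown and storage of fatty acids. With the binding proteins just given, 107 genes were listed and 87 had enough counts to be tested. With all 9 libraries edgeR called 1 of them, Elovl7, from the 14 tested genes of fatty acid synthesis and desaturation, in R788 + anti-PDL1 against vehicle. Over all genes edgeR called 0.678% there. Elovl7 was at 0.262 ± 0.156 CPM in vehicle, 3.62 ± 1.58 CPM in R788 + anti-PDL1 and 3.42 ± 1.44 CPM in irradiated tumors (SD, n = 3), and every treated tumor (1.77 CPM or more) was above every vehicle tumor (0.442 CPM or less). Like Slc27a6 it was low in vehicle and passed the count filter through the treated groups, and it had been named above for its likeness to Slc27a6, so this call is given as a description. It was lost when any of the 6 libraries compared was omitted and under the replicate block. Of the 14 genes DESeq2 called 2 in that comparison (Elovl7 and Scd2), against 4.01% of the genes it tested. With only the 6 libraries compared edgeR called 3 (Elovl7, Scd2 and Fads1), where it called 594 genes in all. Scd2 and Fads1 are desaturases. In irradiated tumors against vehicle the log2 fold change of Elovl7 was 3.69 (edgeR adjusted p = 0.0912), also a description. It was called there under 3 of 11 alternatives: DESeq2, no low-count filter, and edgeR without irradiated replicate 1 (4.03, adjusted p = 0.0362). Fasn, fatty acid synthase, was at 943 ± 185, 905 ± 238 and 1040 ± 487 CPM in vehicle, R788 + anti-PDL1 and irradiated tumors.

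Genes of mitochondrial import and beta-oxidation, which burn the fatty acids once inside, lay below vehicle in the R788 + anti-PDL1 tumors. All 20 of the 20 had a log2 fold change below 0, with a median of -0.46 where the median of all genes was -0.02. Groups did not overlap at 14 of the 20, all lower, against 16.5% of all genes. None was called by edgeR with all 9 libraries, and 4 of the 20 had an unadjusted edgeR p under 0.05, against 11.7% of all genes. DESeq2 called Acadl alone among the 20, where it called 4.01% of the genes it tested. With only the 6 libraries compared edgeR called Acads alone. Acadl, the long-chain acyl-CoA dehydrogenase, was at 53.6 ± 3.26 CPM in vehicle and 25.4 ± 11.4 CPM in R788 + anti-PDL1 (log2 fold change -1.08, edgeR adjusted p = 0.156). Slc25a20, the carnitine carrier, was at 33.9 ± 0.553 and 24 ± 2.6 CPM (-0.49, adjusted p = 0.297), and Cpt1a, which commits fatty acids to this route, at 187 ± 3.28 and 149 ± 12.9 CPM (-0.33, adjusted p = 0.753). Over the 11 alternatives 18 to 20 of the genes were below 0, with medians of -0.49 to -0.31.

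In irradiated tumors the beta-oxidation genes were spread about 0, with 11 of 20 below vehicle and a median of -0.07. Cpt1a had the largest difference (-0.79, edgeR adjusted p = 0.341). Against R788 + anti-PDL1, 15 of the 20 were above 0 with a median of 0.44, where the median of all genes was 0.04, and groups did not overlap at 9, all higher in the irradiated tumors, and at 2 lower ones, against 14.2% and 13.2% of all genes. Without irradiated replicate 1 the median was 0.22. The largest difference was that of Acadvl, the very long-chain acyl-CoA dehydrogenase (1.22, edgeR adjusted p = 0.222, and 0.59 without that replicate). By edgeR with all 9 libraries 0 of the 20 were called in either comparison. DESeq2 called only Cpt2, against R788 + anti-PDL1, where it called 4.06% of the genes it tested. An unadjusted edgeR p under 0.05 was obtained for 1 against vehicle and 7 against R788 + anti-PDL1, where the shares over all genes were 13.2% and 18.4%. The R788 + anti-PDL1 tumors enter both their comparison with vehicle, given above, and that with irradiated tumors.

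**Figure D5:**
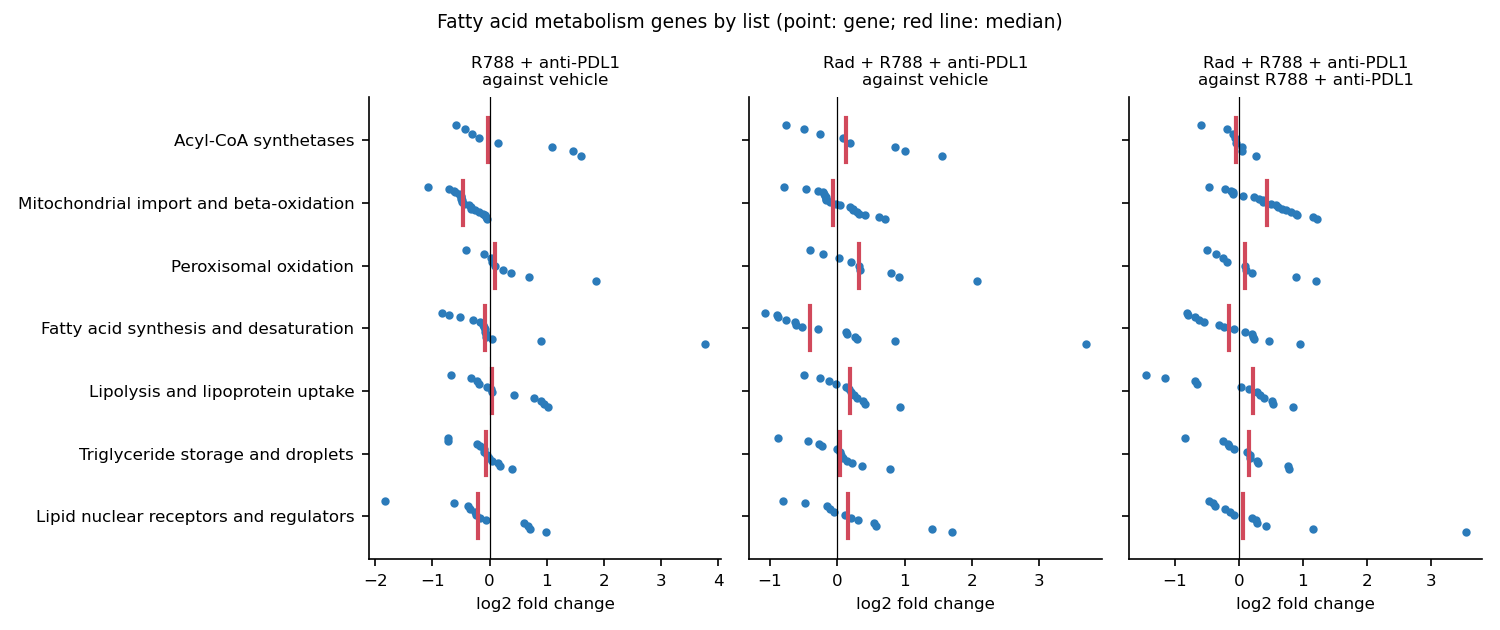
Log2 fold changes of the tested genes of 7 fatty acid lists in the 3 comparisons, 1 point per gene, with the median of each list in red. In R788 + anti-PDL1 against vehicle all 20 genes of mitochondrial import and beta-oxidation lay below 0 (median -0.46), and the point at 3.77 is Elovl7, which was near 0 CPM in vehicle.

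The remaining 5 lists held 0 edgeR calls in any comparison with all 9 libraries, and the gene with the largest difference in each is given by the naming rule. Among 8 tested acyl-CoA synthetases, which activate fatty acids as SLC27 proteins do, the medians were -0.02 in R788 + anti-PDL1 against vehicle, 0.14 in irradiated tumors against vehicle and -0.05 between the treated groups. An unadjusted edgeR p under 0.05 was obtained for 4, 4 and 0 of the 8 in these comparisons, against 11.7%, 13.2% and 18.4% of all genes. Acsbg1 led the first and second (1.60, edgeR adjusted p = 0.138, and 1.56, adjusted p = 0.222), and Acss1 the third (-0.60, and -0.32 without R788 + anti-PDL1 replicate 2). DESeq2 called 3 of the 8 in the first (Acsbg1, Acsl6 and Acss1) and Acsbg1 alone in the second, against 4.01% and 3.15% of the genes it tested. Among 9 peroxisomal genes the medians were 0.09, 0.33 and 0.10, with such a p for 1, 2 and 2, against the same shares of all genes. Abcd2, the peroxisomal importer of very long-chain acyl-CoA, was at 2.08 ± 0.663 CPM in vehicle, 7.55 ± 2 in R788 + anti-PDL1 and 8.74 ± 3.72 in irradiated tumors (log2 fold change 1.86, adjusted p = 0.0941, and 2.08, adjusted p = 0.136). DESeq2 called both differences of Abcd2, and edgeR with only the 6 libraries compared called the first (1.90, adjusted p = 0.0359). Acaa1a had the largest difference between the treated groups (1.21, edgeR adjusted p = 0.222), which was 0.54 without irradiated replicate 1.

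The 12 genes of lipolysis and lipoprotein uptake had medians of 0.03, 0.18 and 0.22 in the same order of comparisons. Such a p was obtained for 4, 1 and 3 of the 12, against 11.7%, 13.2% and 18.4% of all genes, shares that also apply to the lists below. Mgll, which releases the last fatty acid from glycerol, was at 7.92 ± 0.717, 16.2 ± 1.88 and 7.29 ± 1.4 CPM (1.03 in R788 + anti-PDL1 against vehicle, edgeR adjusted p = 0.11). That difference was called by DESeq2 and by edgeR with only the 6 libraries compared (1.07, adjusted p = 0.0312), and DESeq2 also called Mgll between the treated groups. Lipe differed most in irradiated tumors against vehicle (0.93) and Vldlr between the treated groups (-1.46, and -0.81 without R788 + anti-PDL1 replicate 1). The 12 tested genes of triglyceride storage had medians of -0.06, 0.04 and 0.15, with such a p for 0 in each, led by Lpin1 (-0.73) and, in both comparisons of the irradiated tumors, by Gpam (-0.88 and -0.84, but -0.32 and -0.31 without irradiated replicate 1). The 12 tested nuclear receptors and regulators had medians of -0.21, 0.16 and 0.06, with such a p for 1, 2 and 1, led by Cebpa (0.99 and 1.41) and Ppargc1b (-0.47). Cebpa differed by 1.55 in the first without vehicle replicate 1 and by 0.59 in the second without irradiated replicate 3, and Ppargc1b by -0.22 without irradiated replicate 1. In this list DESeq2 called only Ppargc1a, between the treated groups (3.64, adjusted p = 0.0442), where it called 4.06% of the genes it tested. Ppargc1a was near the floor, at 0.312, 0.0813 and 1.02 CPM in vehicle, R788 + anti-PDL1 and irradiated tumors. With edgeR it was not called there (3.55, adjusted p = 0.222). Fibroblast markers, the most abundant host list, summed to 3070 to 3800 CPM in vehicle, 2950 to 5450 in R788 + anti-PDL1 and 2540 to 4980 in irradiated tumors.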

How the data were processed

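RNA-seq of 9 whole tumors was used, 3 per group by the treatment label. The authors deposited Salmon's estimated counts for each gene symbol, rounded to whole numbers and not normalized. Per the labels' processing notes, tools were STAR 2.6.1d and Salmon 1.4.0 on mm10. The study's methods name DESeq2 with apeglm. Labels and methods differ on the sequencer, the extraction text of the labels names macrophages although the tissue is whole tumor, and strandedness is not given in the sources used here. Genes near a paralog or on opposite strands may therefore share counts.

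Genes were filtered with filterByExpr (minimum count 10), leaving 15931, TMM-normalized and fitted in edgeR 4.0.16 (R 4.3.3) by the robust quasi-likelihood F test, two-sided, all 9 libraries in 1 fit without covariates. Calls were made at a Benjamini-Hochberg adjusted p under 0.05 over all genes tested. An exact permutation test of 3 against 3 cannot go below 0.1. The smallest depth was 18276683 counts, and floors of 3 counts cover counting error only. Counting intervals of Slc27a6 are exact conditional 95% intervals. Alternatives were DESeq2 1.42.0, RLE normalization, no filter, a replicate block, only the 6 libraries compared, and each replicate left out. Same-numbered samples correlated at -0.05 to 0.23 in their deviations from group means, so the numbers were not taken to pair tumors. Positions, overlaps and lengths are from GENCODE M21 (GRCm38), promoters from RefSeq. Promoter windows were available for 6 genes, and those of Slc27a1 and Slc27a3 were read but not shown. The windows of Slc27a2 and Fabp3 hold exon bases, as does the Slc27a1 window at chr8:71569347-71569596. The test scripts were tested on simulated data.

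The genes and lists were chosen with earlier results of these data known. The lists (other fatty acid binding proteins, acyl-CoA synthetases, mitochondrial import and beta-oxidation, peroxisomal oxidation, fatty acid synthesis and desaturation, lipolysis and lipoprotein uptake, triglyceride storage and droplets, lipid nuclear receptors and regulators) were written from general knowledge. All 10 transport and binding genes were named. From each list, called genes were named or else the largest difference at a mean count of at least 50. Fasn, Cpt1a, Slc25a20, Thrsp, Krt5, Krt14, Trp63, genes called only under an alternative, Ppara, Ppard and Pparg were named outside this rule, after their values were seen, as were the searched motifs.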

Additional observations from a re-analysis of the deposited data

How the results depend on the processing

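Counts of called genes depended on the method and on single libraries. In R788 + anti-PDL1 against vehicle, edgeR called 108 genes, DESeq2 726, no low-count filter 199, the replicate block 0, the 6 libraries alone 594, and fits without 1 replicate 0 to 75. In Rad + R788 + anti-PDL1 against vehicle the counts were 7, 553, 70, 3, 1 and 1 to 57, and between the treated groups 1, 646, 24, 0, 0 and 0 to 21. The 7 tested transport and binding genes other than Slc27a6 were called 0 times under each alternative in each comparison, except that DESeq2 called 1 (Cd36) in both comparisons of the irradiated tumors. The replicate block called 0 of them in any comparison. The fitted log2 difference of Slc27a6 ranged over 13 alternatives from 4.62 to 5.88, from 3.78 to 5.05 and from -1.27 to -0.34. Signs turned in 5 small differences, each with a replicate left out. These were Fabp3 in R788 + anti-PDL1 against vehicle (-0.05 without vehicle replicate 2, up to 0.71 without another), Slc27a4 in irradiated tumors against vehicle (-0.03 without irradiated replicate 1, up to 0.36), and between the treated groups Slc27a1 (0.17) and Slc27a3 (0.06) without R788 + anti-PDL1 replicate 2 and Slc27a3 (0.09, down to -0.28) without irradiated replicate 2. The cause was not tested. Merged exon length was the planned measure of level, and the coding transcript was not planned. By merged length Slc27a3 was at 10.8, Slc27a4 at 8.08, Fabp3 at 8.01, Slc27a1 at 7.86, Fabp4 at 7.29 and Cd36 at 6.49 CPM per kb in vehicle. The merged exons of Fabp4 span its introns (4489 against 896 bases), and the order of these genes differed from that given above. At 2 counts per vehicle library, depth limits every ratio of Slc27a6 to vehicle.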
